A study of Mus musculus with 6 samples.

Results

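Transcripts of exocrine gland secretions, those of Scgb1b2, Scgb2b2, Obp1a, Gm1553 and Gm5938, were followed in whole mouse skin. These 5 gene symbols, of 23951 in the expression table, were chosen because earlier results of the same libraries had set them apart between the genotypes. All 5 of the 5 were found in the table. They were listed at 0.955 to 2.74 FPKM (sequenced fragments scaled to the length of the transcript and to the total mapped in the library) in JunB dep replicates 1 and 2, and at 0 to 0.0549 FPKM in the other 4 libraries. The library labelled JunB dep replicate 0 listed all 5 at 0, as did control replicate 2.

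Secretoglobins are small secreted proteins. Scgb1b2 belongs to the alpha subunits and Scgb2b2 to the beta-gamma subunits of the mouse androgen-binding proteins, in which 1 subunit of each kind is joined by disulfide bonds. Mice release these dimers in saliva and tears, where they take part in social recognition. Obp1a is an odorant-binding protein, a lipocalin that carries small hydrophobic molecules in nasal mucus and other gland fluids, and RefSeq names Gm5938 as a further odorant-binding protein of the same kind through the synonym OBP6. Gm1553 is known to RefSeq by the synonym Lcrn.

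Skin was taken from 3 JunB dep mice and 3 JunB +/+ littermates on the C57Bl/6 strain, labelled as 6 to 7 months old. JunB dep mice lose the transcription factor JunB in cells that express keratin 5, through a Cre driven by the K5 promoter, so basal cells of other keratin 5 epithelia are also targeted, whereas immune and muscle cells keep the gene. The mutant samples were lesional skin, and both sexes were used. Samples are named here by genotype and by the replicate number 0, 1 or 2 of their labels, each number standing for a mouse of that genotype.

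In 1 library the targeted gene went against the label. Junb, the targeted gene, was at 56.9 to 72.4 FPKM in the 3 controls and at 42.8 and 28.0 FPKM in JunB dep replicates 1 and 2. The library labelled JunB dep replicate 0 held 129.6 FPKM of it, above every control, in whole skin where cells without keratin 5 keep the gene. Other readouts of that library went both ways. Its muscle markers, given below, were low as in JunB dep replicates 1 and 2, whereas the members were listed at 0 in it. Krt13, a mucosal keratin, was at 1990 FPKM in it and at 0.0460 and 0 FPKM in JunB dep replicates 1 and 2. Deposited values summed to 481078 to 630363 FPKM per library and the number of reads is unknown, which leaves no counting interval for a low value. The epidermal markers summed to 8068 to 13697 FPKM in all 6 libraries, and Krt14 of that list was listed at 0 in the library labelled JunB dep replicate 0. Skeletal muscle markers, which summed to 21084 to 27485 FPKM per control and 1960 to 4685 FPKM per JunB dep mouse, did not overlap between the genotypes. In bulk tissue, fewer cells of a type and less RNA per cell cannot be told apart.

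The genes lie at 3 places in the genome (mm9 build). Scgb1b2, annotated under its older name Abph, spans chr7:32075539-32076835 on the minus strand with 3 exons, and Scgb2b2, annotated as Abpe, spans chr7:32087780-32089996 on the plus strand with 3 exons. The pair is separated by 10944 bases and is transcribed away from a shared interval. Obp1a (chrX:75330844-75336713, minus strand) and Gm5938 (chrX:75370806-75375742, plus strand) form a similar pair with 34092 bases between them and 7 exons each. Gm1553 is not named in the GENCODE vM1 annotation used here, and the start site that RefSeq gives it lies on chromosome 10 at 81955363, minus strand. Members that appeared together in the same libraries therefore came from separate chromosomes as well as from neighbouring genes.

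The 120 bases before each start site are shown because the 5 genes moved together and because the odorant-binding pair shares nearly all of this stretch. All 5 RefSeq promoter windows (build GRCm38.p6) were found, and each matched the mm9 genome exactly once. The sequences run 5′ to 3′ on the strand of the gene, and capitals mark the letters TATAAA, the core of the TATA box that positions transcription initiation.
Scgb1b2 (chr7:32076836-32076955, minus strand): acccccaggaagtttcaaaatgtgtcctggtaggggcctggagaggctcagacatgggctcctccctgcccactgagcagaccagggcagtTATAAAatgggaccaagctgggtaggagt
Scgb2b2 (chr7:32087668-32087787, plus strand): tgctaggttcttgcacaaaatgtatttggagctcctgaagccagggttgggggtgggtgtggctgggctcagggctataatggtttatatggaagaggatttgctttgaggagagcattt
Obp1a (chrX:75336714-75336833, minus strand): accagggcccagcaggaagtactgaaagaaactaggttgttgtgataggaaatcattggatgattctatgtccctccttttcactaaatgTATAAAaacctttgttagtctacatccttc
Gm5938 (chrX:75370686-75370805, plus strand): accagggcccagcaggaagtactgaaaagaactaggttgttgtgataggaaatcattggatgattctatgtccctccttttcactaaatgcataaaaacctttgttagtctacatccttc
Gm1553 (chr10:81955364-81955483, minus strand): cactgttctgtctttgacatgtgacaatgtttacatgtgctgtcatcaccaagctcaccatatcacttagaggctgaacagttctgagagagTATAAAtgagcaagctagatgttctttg

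TATAAA began 29 bases before the start in Scgb1b2, 30 in Obp1a and 28 in Gm1553. In Scgb2b2 the same letters were read only on the opposite strand, 37 bases before the start. Gm5938 held them on neither strand in the 250 bases searched. Among 32851 promoters in RefSeq, 12.4% held TATAAA on either strand of those 250 bases and 2.63% held it on the gene's own strand in the last 50 bases. The 2 odorant-binding promoters were 97.5% identical over the stretch printed above, with 3 differences, written as Obp1a base, position from the 5′ end of that stretch, and Gm5938 base: G28A, A29G and T91C. The last of these is the first letter of the capitals in Obp1a. The letters AGAACA, a half-site bound by the androgen and glucocorticoid receptors, were searched on both strands of the same 250 bases. They were found at 212 and 186 bases before the start of Scgb2b2, at 144 in Obp1a and at 180, 117 and 9 in Gm1553, and in neither Scgb1b2 nor Gm5938, against 16.1% of all promoters. No match overlapped a TATAAA, and a match describes letters, not a site in use.

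Scgb1b2, the alpha subunit, was the most abundant member per length of transcript. Control replicates 0, 1 and 2 held 0.0549, 0 and 0 FPKM of it, and it was at 0 in the library labelled JunB dep replicate 0, and at 2.74 and 2.51 FPKM in JunB dep replicates 1 and 2. The mean of the controls was 0.0183 ± 0.0317 FPKM and that of JunB dep 1.75 ± 1.52 FPKM (SD, n = 3 each). Both high values lay far above the rest, while the library labelled JunB dep replicate 0 lay with the controls, so the groups overlapped.

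Scgb2b2, the beta-gamma subunit encoded next to it, followed the same pattern. It was at 0.0450, 0.0471 and 0 FPKM in the controls and at 0, 1.93 and 2.43 FPKM in JunB dep, with means of 0.0307 ± 0.0266 and 1.45 ± 1.28 FPKM (SD, n = 3 each). These traces in control replicates 0 and 1, with that of Scgb1b2 in control replicate 0, were the only member values above 0 outside JunB dep replicates 1 and 2. The remaining 17 of 20 member values in those 4 libraries were listed at 0.

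Obp1a was listed at 0 in all 3 controls and in the library labelled JunB dep replicate 0, and at 2.05 and 1.77 FPKM in JunB dep replicates 1 and 2. Its neighbour Gm5938 was at 0 in the same 4 libraries and at 1.12 and 0.955 FPKM in the same pair. Gm1553 was at 0 in the same 4 libraries and at 1.55 and 1.59 FPKM in the pair. The order of these 3 in both libraries was Obp1a, Gm1553 and Gm5938. Since every control is listed at 0 for them, and a 0 in a table of FPKM can also be a failed estimate, no fold is given.

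**Figure D1:**
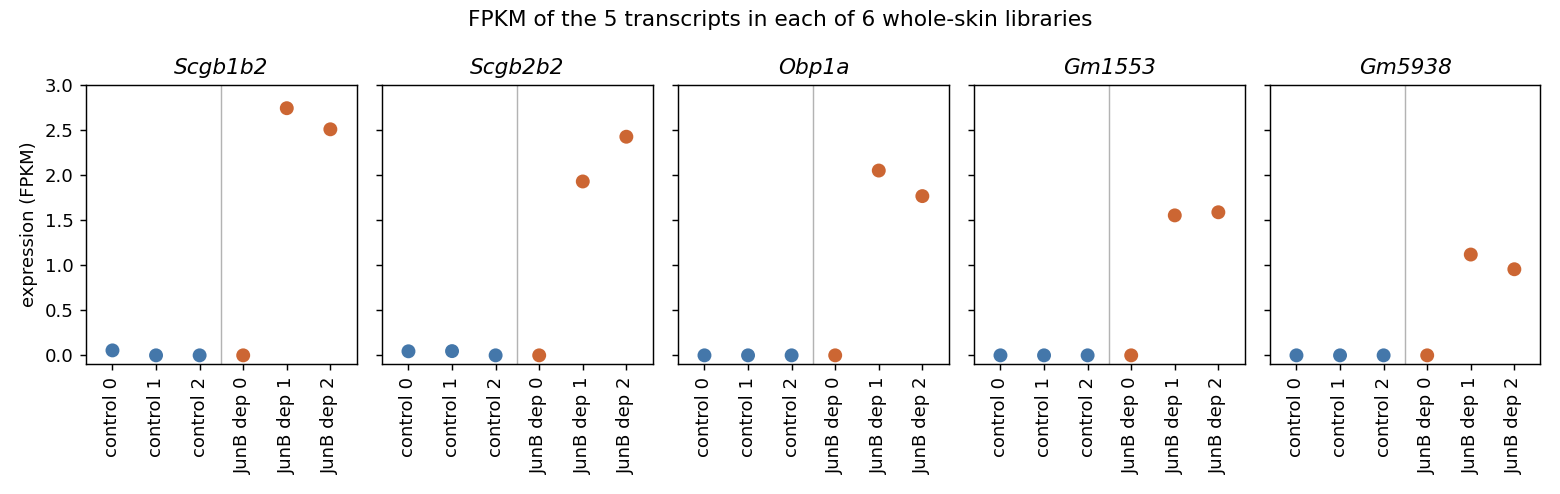
Expression of the 5 transcripts in FPKM (vertical axis, linear) in each of the 6 libraries (horizontal axis), with controls in blue and JunB dep in orange, 1 point per library. JunB dep replicates 1 and 2 sit between 0.955 and 2.74 FPKM in every panel, and no other point exceeds 0.0549 FPKM.

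The 2 high libraries were then set side by side, as a description, since a small spread between them favoured the choice of these genes. The log2 ratio of replicate 1 to replicate 2 ran from -0.33 for Scgb2b2 to 0.23 for Gm5938. Scgb1b2 ranked 1 and Gm1553 and Gm5938 ranked 4 and 5 in both. Obp1a and Scgb2b2 exchanged ranks 2 and 3 (2.05 and 1.93 FPKM in replicate 1, 1.77 and 2.43 FPKM in replicate 2), so this pair of neighbours in the order did not differ beyond the spread between the 2 mice.

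On the log2(FPKM + 0.5) scale, the difference of JunB dep minus control over all 6 libraries was 1.71 for Scgb1b2, 1.53 for Scgb2b2, 1.51 for Obp1a, 1.37 for Gm1553 and 1.08 for Gm5938, a scale that understates the change of low genes. The median was 1.51 over the members and 0.03 over the 17021 genes tested. All 5 members passed the filter of a mean of 0.1 FPKM, and they did so through JunB dep replicates 1 and 2 alone. Because the genes were selected on this contrast, these values are a description and carry no test. In the limma fit over all 17021 genes, 0 of the 5 members were called at an adjusted p below 0.05, and 0 reached an unadjusted p below 0.05. That fit called 0 genes higher in JunB dep (0%), and 235 lower (1.38%), against 243 higher and 1044 lower at an unadjusted p below 0.05. Limma without the intensity trend also called 0 genes higher. The lower count was 0 without any one of the 3 controls, without JunB dep replicate 1, or when either the replicate number or the sample-name series was fitted as a block, and 125 without the library labelled JunB dep replicate 0. For 0 of the 5 members did the groups fail to overlap, against 956 higher genes (5.62%) and 1559 lower genes (9.16%) of all tested.

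Leaving out the library labelled JunB dep replicate 0 changed this picture. The median difference of the members became 2.27, and limma then called 10 of 16912 genes higher (0.0591%), among them all 5 members. The members had been chosen because earlier results of these same libraries set them apart between the genotypes, so nothing is read from their number. The other 5 genes were BC100530, Epgn, Prss27, Stfa1 and Stfa3, named here after their values were seen. Unlike the members, all 5 were highest in the library that had been left out. Stfa3, a stefin of the cysteine protease inhibitors, held 2.57 to 3.63 FPKM per control, 2599 FPKM in that library, and 64.5 and 70.8 FPKM in JunB dep replicates 1 and 2. Epgn, a ligand of the epidermal growth factor receptor, held 7.03 to 8.60 FPKM per control, 151 FPKM in that library, and 29.7 FPKM in each of the other 2.

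Genotype, sex and sample number set JunB dep replicates 1 and 2 apart from the other 4 libraries only in combination. Xist, which is transcribed from the inactive X chromosome of females, was at 34.2 and 30.3 FPKM in them and at 27.6 FPKM in control replicate 1. It was at 0.0112 to 0.0274 FPKM in the other 3 libraries, which instead held 38.7 to 46.1 FPKM of 4 Y-linked genes. The sample names carry numbers, 231, 233 and 273 for control replicates 0, 1 and 2 and 230, 276 and 277 for JunB dep replicates 0, 1 and 2. The high pair were thus the only libraries that were at once JunB dep, female by Xist and numbered with 27 as leading digits. Genotype, sex and number series cannot be told apart for them.

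Within the Xist-positive libraries, 1 control and 2 JunB dep, the members differed by 1.62 to 2.64 on the log2 scale, with a median of 2.27. The Xist-positive control listed 4 of the 5 members at 0 and Scgb2b2 at 0.0471 FPKM. Within the 3 Xist-negative libraries the difference was -0.08 to 0. Within the libraries whose numbers begin with 27 the median was 2.27, and within the others it was 0, from -0.13 to 0. The Xist-positive subset and the subset numbered with 27 hold the same JunB dep libraries, those in which the members were high. Their equal medians are therefore not separate observations. These subsets hold 1 or 2 libraries a group and allow no test.

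Of the other 22 secretoglobin symbols, most that were detected were distributed differently. The sum of the 22 was 20.0 and 22.0 FPKM in control replicates 0 and 1, 30248 FPKM in control replicate 2, and 9.97, 13.4 and 27.0 FPKM in JunB dep replicates 0, 1 and 2. Of the 13 that reached 1 FPKM in any library, 12 were highest in control replicate 2. There Scgb2b24 was at 12409 FPKM, Scgb2b20 at 8432 FPKM and Scgb2b7 at 7990 FPKM, all beta-gamma subunits like Scgb2b2. The alpha subunits Scgb1b24 and Scgb1b3 were at 703 and 639 FPKM. Scgb1b2 and Scgb2b2 were listed at 0 in that library. Not every relative clearly followed either distribution. Scgb1b27, counted among the 12, was at 0.563, 0 and 2.17 FPKM in the controls and at 0.383, 0.838 and 1.81 FPKM in JunB dep. Scgb1b29 and Scgb2b17 were listed at 0 throughout.

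Scgb1b20 and Scgb1b7 were the alpha subunit genes outside the members that shared their distribution, a choice made after values were seen. Scgb1b20 was at 0.432 and 0.284 FPKM and Scgb1b7 at 0.144 and 0.170 FPKM in JunB dep replicates 1 and 2, and both were listed at 0 in the other 4 libraries. The coding sequence of each was 84.4% identical to that of Scgb1b2, and so was that of Scgb1b29, which was listed at 0 in every library. Scgb1a1, the club cell secretoglobin of airways, was at 8.50 to 22.1 FPKM in all 6 libraries, with overlapping groups.

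Reads could be shared between these close relatives. Of the 50-base windows of the Scgb1b2 transcript, 8.40% matched a transcript of another gene with at most 2 mismatches, the number the authors' alignment allowed, and for Scgb2b2 the share was 9.77%. Windows of Scgb1b2 matched the gene annotated as Gm9140 in 8.40% of cases and that annotated as Gm4695 in 5.96%. They matched Gm7147 and Gm5895, both older names of Scgb1b20, in 5.96% and 5.15%, so the low values of Scgb1b20 could include shared reads. Windows of Scgb2b2 matched Scgb2b26 in 9.77% and the gene annotated as Abpb in 9.34%, and Scgb2b24, Scgb2b20 and Scgb2b7 in 3.40%, 3.61% and 3.61%. The coding sequence of Scgb2b2 was 70.6% identical to that of Scgb2b24 and 68.9% identical to those of Scgb2b20 and Scgb2b7. For Obp1a and Gm5938, whose coding sequences were 90.1% identical, 29.7% and 28.9% of windows matched the other member. How much of each value belongs to Obp1a and how much to Gm5938 is therefore uncertain.

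In addition, 3 further genes of the X-linked odorant-binding cluster were measured. Gm14743, 70.8% identical to Obp1a in its coding sequence, reached 52.3 FPKM in control replicate 2, and each of the other 5 libraries listed it at 0. Gm14744 was at 0.0288 FPKM in control replicate 0 and 5430402E10Rik at 0.0299 FPKM in JunB dep replicate 2, each at 0 elsewhere. Obp2a was at 0.0297 to 0.0646 FPKM in controls and at 0 in JunB dep, and Obp2b was above 0 only in control replicate 1, at 0.0329 FPKM. None of these 5 odorant-binding genes followed the members. The 32 odorant-binding, lipocalin and major urinary protein symbols outside them summed to 21.2 to 4470 FPKM per control and 15.8 to 1044 FPKM per JunB dep mouse, and the 9 that reached 1 FPKM were highest in control replicates 0 or 2 or, for Lcn2, in the library labelled JunB dep replicate 0.

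**Figure D2:**
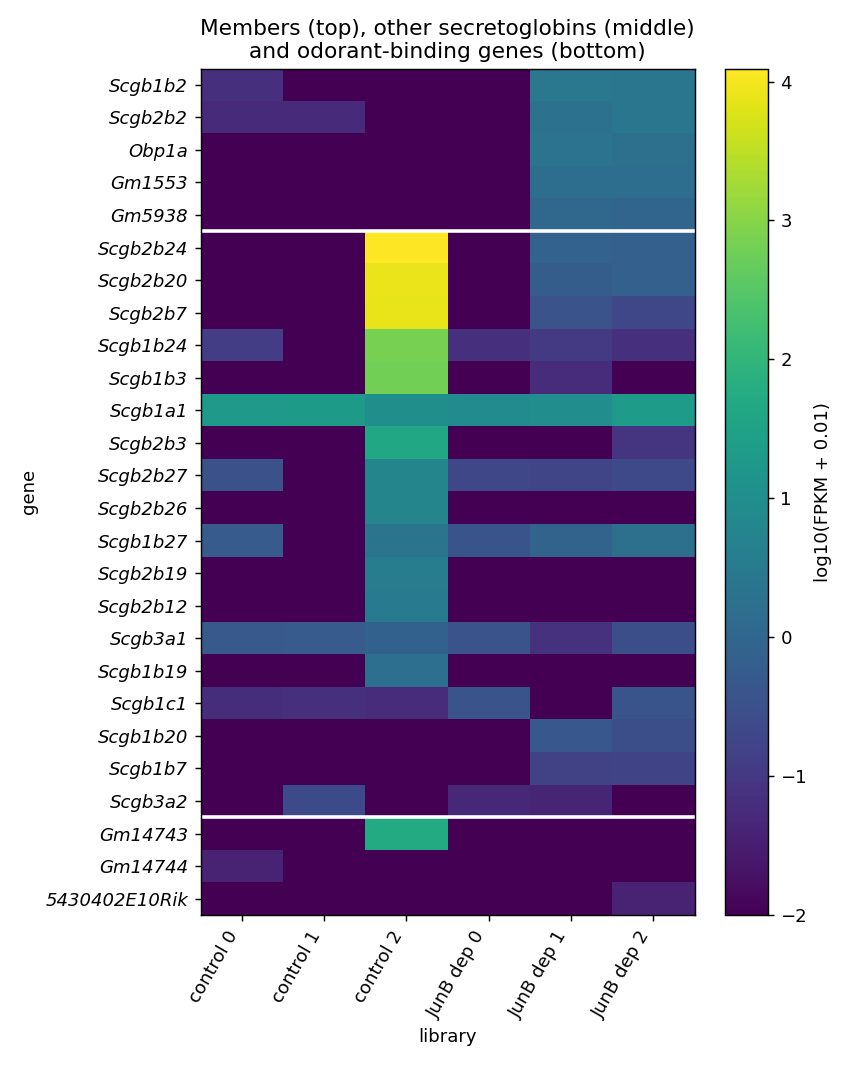
Expression as log10(FPKM + 0.01), shown by colour, for the members, for the other secretoglobins that reached 0.1 FPKM in a library and for 3 odorant-binding genes (rows) in the 6 libraries (columns). The members are coloured in JunB dep replicates 1 and 2, whereas Scgb2b24 reaches 12409 FPKM and Gm14743 reaches 52.3 FPKM in control replicate 2.

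Markers of glands that could lie in or beside a piece of skin were set beside the members. The 25 salivary and lacrimal secretion genes summed to 94.7 to 6301 FPKM per control and, in JunB dep, to 52.0 to 193 FPKM. Of the 14 that reached 1 FPKM, 8 were highest in control replicate 2, 3 in control replicate 0, 1 in the library labelled JunB dep replicate 0 and 2 in JunB dep replicate 2 (Amy1 at 125 FPKM and Tcn2 at 58.7 FPKM). Pip, a secreted protein of lacrimal and salivary acini, was at 3877 FPKM in control replicate 2 and at 0.318 and 0.209 FPKM in JunB dep replicates 1 and 2. Bhlha15, a transcription factor of secretory acinar cells, was at 69.8 FPKM in control replicate 2 and at 0.121 and 0.198 FPKM in the same pair. Smgc, Prh1, Prb1 and Klk1b22 were listed at 0 in every library. Bpifa2 and Smr3a, secreted into saliva, were instead highest in control replicate 0, at 37.9 and 20.7 FPKM, and were listed at 0 in all 3 JunB dep libraries.

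The 9 genes of the nasal and airway list did not move together. Bpifa1 and Muc5ac, secreted by airway epithelium, were listed at 0 in all 6 libraries, and Bpifb1 and Muc5b did not exceed 0.0147 FPKM. Foxj1, a transcription factor of ciliated cells, was at 0.321 and 1.52 FPKM in JunB dep replicates 1 and 2 and at 0.0446 to 0.107 FPKM in the other 4 libraries. Omp, the olfactory marker protein, was at 0.392 to 1.14 FPKM in all 6, and Reg3g, an antimicrobial lectin, was highest in the library labelled JunB dep replicate 0, at 24.1 FPKM. The list summed to 0.640 to 177 FPKM per control and, in JunB dep, to 3.53 to 89.0 FPKM, and most of the larger sums was Ltf, encoding lactoferrin, which was at 86.5 FPKM in JunB dep replicate 2 and 2.03 FPKM in replicate 1.

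Among the genes that reached 1 FPKM, 3 of 5 in the milk list, 4 of 6 in the sweat list and 5 of 9 in the simple glandular list were highest in JunB dep replicate 2. The exceptions were Elf5 and Aqp5, highest in control replicate 2, Foxc1, highest in JunB dep replicate 1, and Glycam1, Epcam, Ehf, Muc1 and Spdef, highest in the library labelled JunB dep replicate 0. Foxa1, a transcription factor of the sweat list, was at 0.715 and 6.05 FPKM in JunB dep replicates 1 and 2, at 4.23 FPKM in control replicate 2 and at 0 to 0.0650 FPKM in the other 3. Foxi1 of the same list was at 0.120 and 1.71 FPKM in JunB dep replicates 1 and 2 and at 0 to 0.00898 FPKM elsewhere. Krt19, a keratin of simple and ductal epithelium, was at 1.61, 2.77 and 1.28 FPKM in controls and at 0.635, 14.3 and 167 FPKM in JunB dep replicates 0, 1 and 2. Csn3, encoding kappa-casein, was at 0.644 and 11.5 FPKM in JunB dep replicates 1 and 2 and at 0 to 0.172 FPKM elsewhere. Btn1a1, encoding butyrophilin of the milk fat globule, was at 0.251 and 9.45 FPKM in that pair and at 0.0123 to 0.0713 FPKM elsewhere. Krt19, Csn3 and Btn1a1 were each many-fold higher in JunB dep replicate 2 than in replicate 1.

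Over the whole lists, the 11 milk and mammary genes summed to 2.06 to 16.7 FPKM per control and, in JunB dep, to 13.0 to 37.0 FPKM, with Csn1s2b at 0 throughout and Wap and Csn2 above 0 in JunB dep replicate 2 alone. The 7 sweat gland genes summed to 20.2 to 79.3 FPKM and 15.6 to 49.8 FPKM, and the 9 simple glandular genes to 81.1 to 232 FPKM and 176 to 450 FPKM. The 14 sebaceous genes summed to 798 to 1359 FPKM and 902 to 1461 FPKM, and Scd1, at 153 to 752 FPKM elsewhere, was listed at 0 in JunB dep replicate 2, which had the lowest JunB dep sum. The part of these tissues in the members' levels was not tested.

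In the fit over all genes, 0 of the tested genes of the secretoglobin, lipocalin, salivary and lacrimal, nasal, milk, sweat, sebaceous and simple glandular lists were called, of 16, 12, 14, 4, 6, 6, 14 and 9 in that order. Of these 81 genes, 5 (6.17%) reached an unadjusted p below 0.05 in limma (Scgb3a1, Egf, Scd3, Epcam and Muc1), against 7.56% of all genes tested. The median log2 differences of these lists, in the same order, were -1.01, -1.37, -1.98, 0.50, 1.42, 0.12, 0.07 and 0.67. In the first 3 of them control replicate 2 held the largest sum, and it did so also in the nasal and sweat lists, whose medians were above 0. Skeletal muscle was the one list with calls, 11 of 15 genes lower in JunB dep, and the calls over all lists fell to 0 without any one control, without JunB dep replicate 1 or with either block, and to 3 without the library labelled JunB dep replicate 0. The mucosal, liver, epidermal, sex-linked and sex steroid response lists had 0 calls among 7, 10, 8, 5 and 4 genes tested. Mucosal genes nevertheless summed to 3853 FPKM in the library labelled JunB dep replicate 0, against 39.4 to 105 FPKM elsewhere, and liver genes to 2271 FPKM in control replicate 0, against 2.94 to 38.3 FPKM elsewhere.

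**Figure D3:**
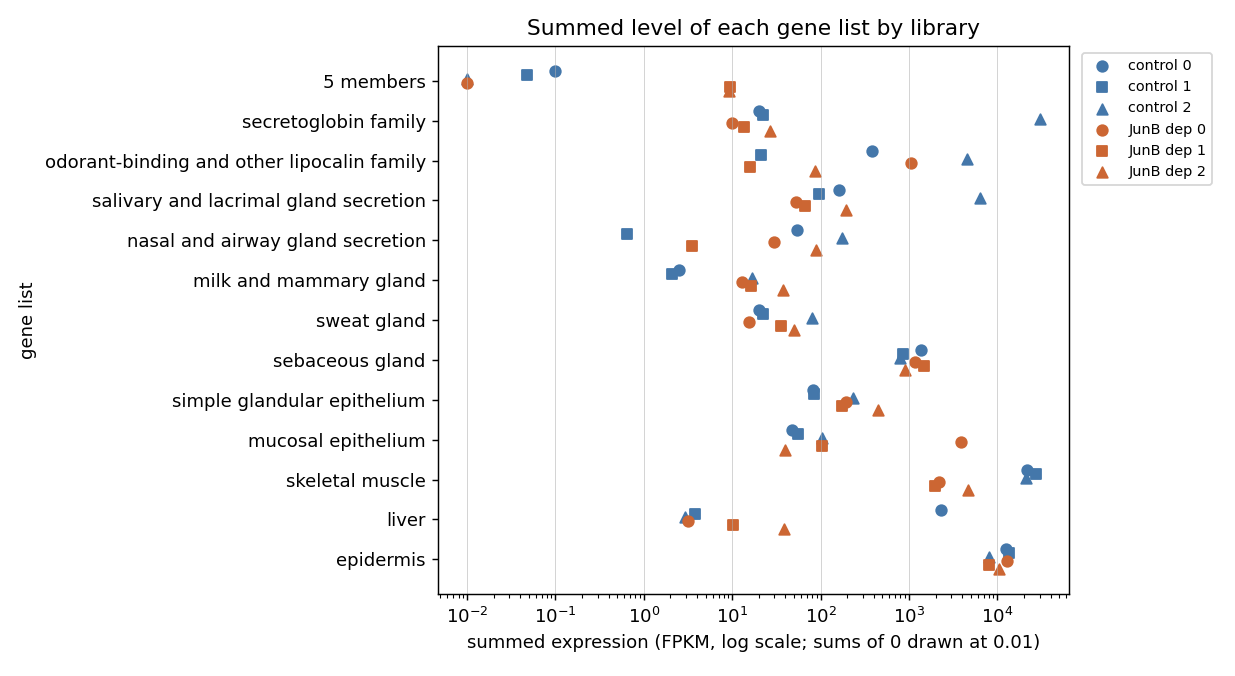
Summed expression of the members and of each gene list in FPKM (horizontal axis, log scale, with sums of 0 drawn at 0.01) for the 6 libraries, controls in blue and JunB dep in orange, 1 symbol per library. The members are high in JunB dep replicates 1 and 2, whereas the other secretoglobins sum to 30248 FPKM in control replicate 2 and to at most 27.0 FPKM elsewhere.

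Traces of the transcripts abundant in control replicate 2 were counted in the other libraries, because the same 2 libraries that held the members held more of them. A set of 19 genes was at 100 FPKM or more in control replicate 2 and below 1 FPKM elsewhere, a choice made after values were seen. Of these 19, 7 were above 0 in control replicate 0, 6 in control replicate 1, 7 in the library labelled JunB dep replicate 0, 17 in JunB dep replicate 1 and 15 in JunB dep replicate 2. Relative to control replicate 2, their median level was 0 parts per 1000000 in the first 3 and 74.1 and 71.0 parts per 1000000 in JunB dep replicates 1 and 2. Scgb2b24 was at 0.801 and 0.712 FPKM in that pair, or 64.6 and 57.4 parts per 1000000 of its level in control replicate 2. Control replicate 2 shares with the pair the sample numbers that begin with 27, and it listed all 5 members at 0, with the limit on listed zeros given above. The part of such traces in the members' levels was not tested.

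Of these 19 genes, 6 encode exocrine-gland secreting peptides (Esp), which include pheromones released in tears, so the Esp genes as a whole, added after values were seen, are no separate observation. The 16 Esp genes summed to 7728 FPKM in control replicate 2, to 0.762 and 0.316 FPKM in JunB dep replicates 1 and 2, and to 0.0556 to 0.0717 FPKM in the other 3.

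Other genes with a similar distribution were counted. A level of at least 0.5 FPKM in both JunB dep replicates 1 and 2 with less than 0.1 FPKM in the other 4 libraries was met by 6 of 23951 genes, the 5 members and 3110079O15Rik. These limits were set around the members' own values, so their place in this count is not a result. 3110079O15Rik was at 0.524 and 4.19 FPKM in the pair and at 0.0484 to 0.0996 FPKM in the others.

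Likeness to the members was measured as Pearson's r, over the 6 libraries, with the mean of their log2(FPKM + 0.5) values, and is given as a description. Between the members themselves r was 0.991 to 1.00. Among 13742 other genes averaging 1 FPKM or more, 23 had an r above 0.95. The 10 highest were Gle1 (0.992), Tceanc2, Dalrd3, Usp48, Pgap3, Gon4l, Ppil2, Ppp1r9b, Tctn2 and Elmod2 (0.967). Gle1, an mRNA export factor, was at 15.4 to 15.8 FPKM in the 4 low libraries and at 18.0 and 17.8 FPKM in the high pair. Gle1 was the gene most like each of the 5 members taken singly, and the next 2 places were shared by Tceanc2, Dalrd3 and Usp48.

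The shape was alike but the size was not. On the log2 scale the 10 genes differed between the pair and the other 4 libraries by 0.17 to 0.60, and the members by 1.62 to 2.61. All points share the same 6 libraries, of which 2 set the value of r. Among 100 genes of the gland and cell type lists at this level, Krt19 had the highest r, 0.89, followed by Csn3 (0.79), Krt7 (0.77) and Btn1a1 (0.71), all below the 23.

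**Figure D4:**
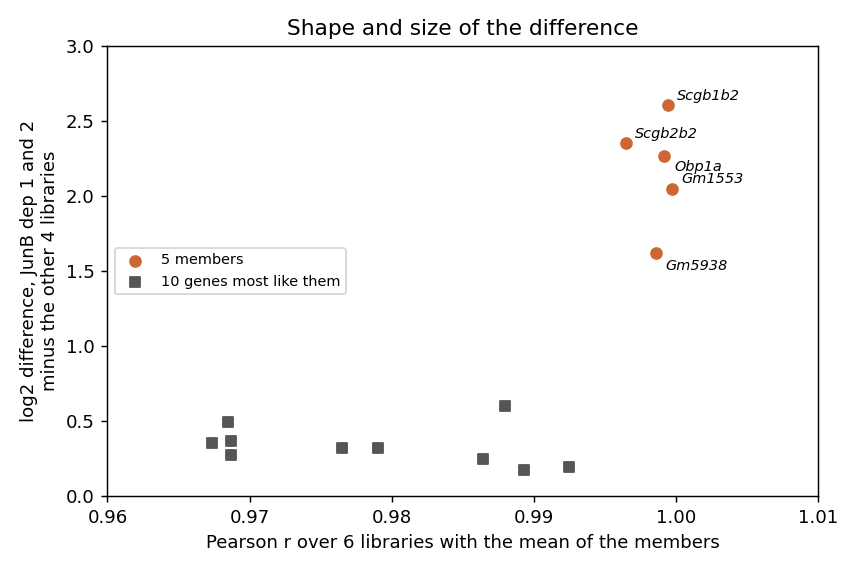
Pearson r with the mean of the members over 6 libraries (horizontal axis) against the log2 difference of JunB dep replicates 1 and 2 minus the other 4 libraries (vertical axis, log2(FPKM + 0.5) scale) for the members, which are part of that mean, and for the 10 genes most like them. The genes with a matching shape differ by at most 0.60, and every member by at least 1.62.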

How the data were processed

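Whole-skin RNA of 3 JunB dep and 3 JunB +/+ mice was profiled from stranded poly(A) libraries. The authors aligned reads to mm9 (submitters' processing notes: TopHat2 2.0.10, Bowtie 1.0.0, SAMtools 0.1.19, with FastQC and Cufflinks named) and deposited FPKM per gene and mouse. The sources used here do not state how the FPKM were made and scaled, and read counts were not analysed here. Two-sided limma 3.58.1 (R 4.3.3, intensity trend, Benjamini-Hochberg, threshold 0.05) was run on log2(FPKM + 0.5) for genes averaging 0.1 FPKM or more and was tested on simulated data. Tables and figures used Python 3.11.15, pandas 2.3.3 and matplotlib 3.10.9. Genes named were the members, genes of 14 hand-written lists, Junb and, for likeness, the 10 genes with the highest r, or 3 per member. Any other gene is said to be chosen after its values were seen, or neighbours a member. Members and lists were chosen with earlier results of these data known. Gene positions were from GENCODE vM1. Alternatives were another pseudocount (0.1 or 1), another filter (none or 1 FPKM), median-ratio and quantile scaling, limma without trend, blocks and each library left out.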

Additional observations from a re-analysis of the deposited data

How the results depend on the processing

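The median log2 difference of the members was 1.51 and kept its direction under the pseudocounts, the scalings and the left-out libraries, the alternatives run for it. It was 2.71 with a pseudocount of 0.1 and 1.03 with a pseudocount of 1, and 1.06 to 2.27 with each library left out, highest without the library labelled JunB dep replicate 0. Under median-ratio or quantile scaling it was 1.51 and 1.52. The count of lower genes, 235, ran from 0 to 254 and that of higher genes, 0, from 0 to 10 with a library left out. The lower count was 0 without any one of the 3 controls or without JunB dep replicate 1, and 125 without the library labelled JunB dep replicate 0. Calls in the lists, 11, were 4 with no filter and 0 to 13 with a library left out. Of the 10 genes most like the members, 9 were also among the 10 with a pseudocount of 0.1.

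Replicate numbers did not pair the samples, since the correlations of deviations of same-numbered libraries were 0.12, -0.23 and -0.43. With a replicate block, the lower count was 0, the higher count 0 and the list calls 0, and a block on the number series of the sample names, added after the data were seen, gave 0, 0 and 0 as well. Depth is unknown, and a listed 0 can also be a failed estimate, so absence of a member cannot be read from it.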
